A study of Homo sapiens with 6 samples.

Results

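The transcripts of 49 genes that copy the genome, or that carry a cell from G1 into S phase, were compared between SU-DHL-2 cells cultured with IL-17A and cells cultured without it. The genes were taken from a list of replication factors and G1/S regulators, and a probe was assigned to a gene when its RefSeq accession belonged to that gene. All 49 genes were found among the 19740 genes named on the array, through 63 probes, and all 49 were among the 14747 genes that were tested. Each of them was detected on all 6 arrays.

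SU-DHL-2 is an established human cell line of diffuse large B-cell lymphoma (DLBCL), a fast-growing tumor of mature B cells. The IL-17A group held 3 samples of these cells, grown with the cytokine IL-17A at 200 pg/ml for 72 h, and the control group held 3 samples grown for the same time without it. RNA of each sample was labeled with Cy3 and hybridized to a 1-colour whole-genome array, so that each signal is an intensity, and levels are given below as log2 of that signal after quantile normalization. The data come from 1 cell line, and nothing in the labels says that the samples were separate cultures, so the p-values measure only the spread between these samples.

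Replication is prepared in G1, when the origin recognition complex, CDC6 and CDT1 load the ring of MCM2 to MCM7 onto DNA. At the start of S phase CDC45 and the GINS complex turn that ring into a working helicase, and polymerases held by the sliding clamp PCNA then copy the strands. Most of these genes are transcribed in a burst at the G1/S border by E2F factors. For that reason they are widely read as markers of proliferating cells. The E2F factors are held back by the Rb protein until cyclin-bound kinases, among them CDK2 with cyclin E, inactivate it.

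The promoters of several of these genes carry the letters that E2F factors are known to bind, and a few such promoters are shown, together with that of PCNA. RefSeq windows of GRCh38.p14, from 250 bases before to 50 bases after the first base of the gene, were at hand for 43 of the 49 genes. They were searched on both strands for TTTCGCGC or TTTGGCGC. The stretches below end before the start of the gene and run 5′ to 3′ along the gene's strand, with the matching letters in capitals.
MCM6, chr2:135876502-135876615, minus strand: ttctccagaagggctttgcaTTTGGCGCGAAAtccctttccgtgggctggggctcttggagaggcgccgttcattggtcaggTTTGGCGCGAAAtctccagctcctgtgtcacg
CDC25A, chr3:48188422-48188481, minus strand: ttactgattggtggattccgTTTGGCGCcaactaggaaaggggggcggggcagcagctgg
E2F1, chr20:33686386-33686425, minus strand: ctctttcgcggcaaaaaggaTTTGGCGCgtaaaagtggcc
POLA2, chr11:65261889-65261948, plus strand: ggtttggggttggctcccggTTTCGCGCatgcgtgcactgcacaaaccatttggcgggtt
PCNA, chr20:5126623-5126712, minus strand: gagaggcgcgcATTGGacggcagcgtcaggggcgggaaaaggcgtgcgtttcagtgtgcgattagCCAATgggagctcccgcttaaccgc

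In MCM6 the capitals cover 4 matches that overlap in pairs, because TTTGGCGC on the strand shown shares bases with TTTCGCGC on the other strand. The E2F letters were present in 13 of the 43 windows (30.2%), against 227 of the 11650 windows of tested genes (1.95%) and 320 of all 27305 windows (1.17%). The 13 genes were CDC6, MCM2, MCM3, MCM6, MCM7, GINS1, POLA1, POLA2, POLE, POLE2, CDC25A, E2F1 and E2F2. The PCNA window held neither of the strings searched. In its sequence above the capitals mark the CCAAT box, once on each strand, a short element common in promoters of growth genes. CCAAT was found in 23 of the 43 windows (53.5%), against 36.8% of those of tested genes and 35.7% of all windows. A motif of genes expressed late in the cycle, the CHR element (TTTGAA), was found in 2 of the 43 (4.65%), against 10.5% of those of tested genes and 15.5% of all windows. A match is a string of letters and not a measured binding site. Other spellings of the E2F site were not searched, so a window without a match, such as that of PCNA, may still hold one.

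On the arrays, the replication and G1/S genes were slightly lower with IL-17A. Of the 49 genes, 36 had a lower mean signal with IL-17A than without it (73.5%, against 49.1% of all genes tested) and 13 had a higher one. Their median log2 fold change was -0.065, against 0.003 over all genes tested. In RNA from whole cultures, fewer cells in S phase and less of these transcripts per cell cannot be told apart.

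The changes were small. By limma, with the p-value adjusted by the Benjamini-Hochberg method over all tested probes, 4 of the 49 genes fell (8.16%) at an adjusted p under 0.05, against 3.48% of all genes tested. They were PCNA, FEN1, SLBP and CCNE2. None of the 49 rose at that threshold, where 4.37% of all genes did. At an unadjusted p under 0.05, limma gave 11 lower genes (22.4%, against 14.8% of all genes) and 1 higher gene, RFC1 (2.04%, against 16.9%). The signals of the groups did not overlap, with IL-17A lower, for 17 of the 49 (34.7%, against 19.3% of all genes), and with IL-17A higher for 3 (6.12%, against 21.4%). No gene of the 49 reached a change of 1.5-fold with an unadjusted p under 0.05, a threshold that 1.92% of all genes passed in either direction. The 95% intervals of the 49 log2 fold changes lay between -0.41, the lower end for RPA3, and 0.31, the upper end for POLE, and so within the 0.585 that 1.5-fold amounts to.

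**Figure D1:**
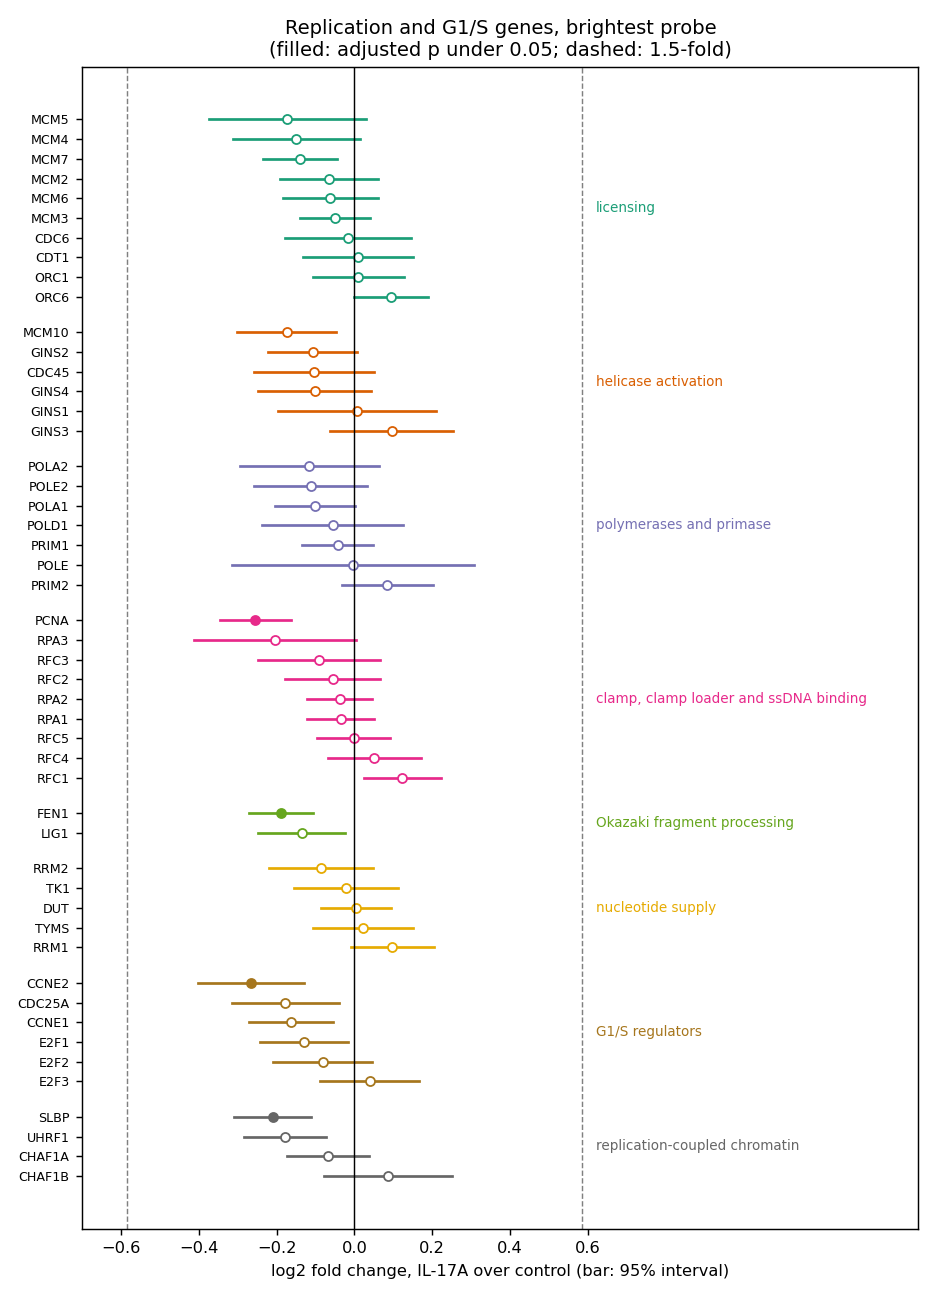
Log2 fold change of IL-17A over control (x axis) for each of the 49 genes at its brightest tested probe, grouped by role, with bars for the 95% interval and dashed lines at 1.5-fold. Filled circles mark PCNA, FEN1, SLBP and CCNE2, the 4 genes with an adjusted p under 0.05 by limma, and every interval lies inside the dashed lines.

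The changes were also somewhat smaller in size than over all genes. The log2 fold changes ran from -0.27 for CCNE2 to 0.12 for RFC1, and their median size was 0.091, against 0.113 over all genes tested. The standard errors were likewise smaller, with a median of 0.049 against 0.061. No test of the list against other genes was made, and these shares and medians describe the list only.

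**Figure D2:**
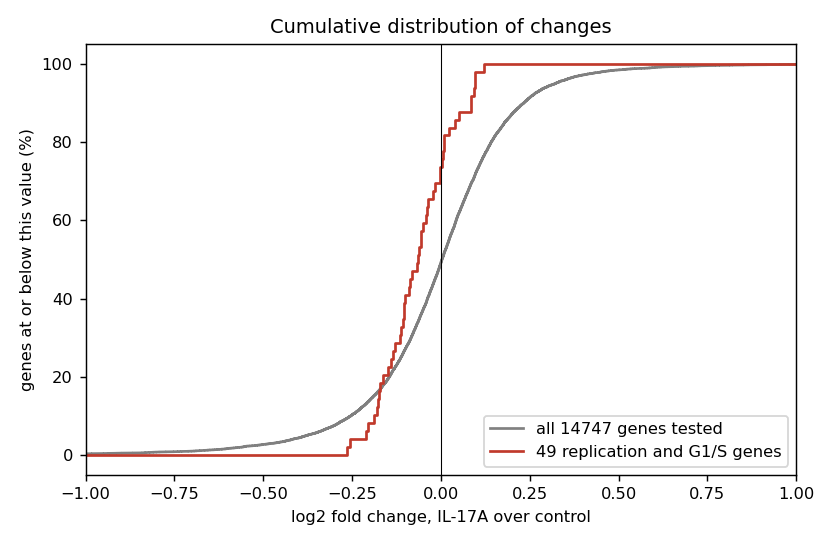
Share of genes (y axis, in percent) with a log2 fold change at or below the value on the x axis, for the 49 genes in red and all 14747 tested genes in gray; the x axis stops at -1 and 1. The red line crosses 0 at 73.5% and the gray one at 49.1%, while the gray line has longer tails on both sides.

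PCNA, the ring that slides along DNA and holds the polymerases, is encoded on chromosome 20 at 5114953 to 5126622 (GRCh38.p14, as are the positions that follow). Its log2 signal was 12.58, 12.58 and 12.56 on the arrays of IL-17A replicates 1 to 3, and 12.87, 12.82 and 12.79 on those of control replicates 1 to 3. All IL-17A arrays were below all controls, with almost no spread among them (12.57 ± 0.0076, SD, n = 3, against 12.83 ± 0.037). The difference in log2 signal was -0.25 ± 0.037 (SE), so that PCNA fell by 16.2%, with a 95% interval from -21.4% to -10.7% (limma, adjusted p = 0.0327). PCNA was the one gene of the 49 for which a further probe passed the same test, with a log2 fold change of -0.20 (limma, adjusted p = 0.0447).

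FEN1, the flap endonuclease that trims Okazaki fragments, lies on chromosome 11 at 61792911 to 61797238. The log2 signals were 8.19, 8.16 and 8.20 with IL-17A, and 8.37 on each of the 3 control arrays. The groups were far apart compared with their spread, since the SD was 0.020 with IL-17A and 0.0014 in the controls. The log2 fold change was -0.19 ± 0.034 (SE), and FEN1 fell by 12.3% (limma, adjusted p = 0.0389).

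SLBP, which binds the stem-loop of histone mRNAs and accumulates in S phase, lies on chromosome 4 at 1692731 to 1712319. Its log2 signals with IL-17A were 11.36, 11.30 and 11.36, and those of the controls were 11.58, 11.54 and 11.52, so the groups did not overlap. SLBP fell by 13.6%, with a log2 fold change of -0.21 ± 0.040 (SE; limma, adjusted p = 0.0425).

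CCNE2, 1 of the 2 E-type cyclins that activate CDK2 at the G1/S border, had log2 signals of 8.44, 8.50 and 8.40 with IL-17A and 8.65, 8.68 and 8.80 in the controls. Control replicate 3 was the highest of the 6 arrays, and all controls were above all IL-17A arrays. CCNE2 fell by 16.8%, and its log2 fold change of -0.27 ± 0.055 (SE; limma, adjusted p = 0.0483) was the lowest of the 49. A dimmer CCNE2 probe gave -0.16 and passed only without adjustment (limma, adjusted p = 0.104).

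**Figure D3:**
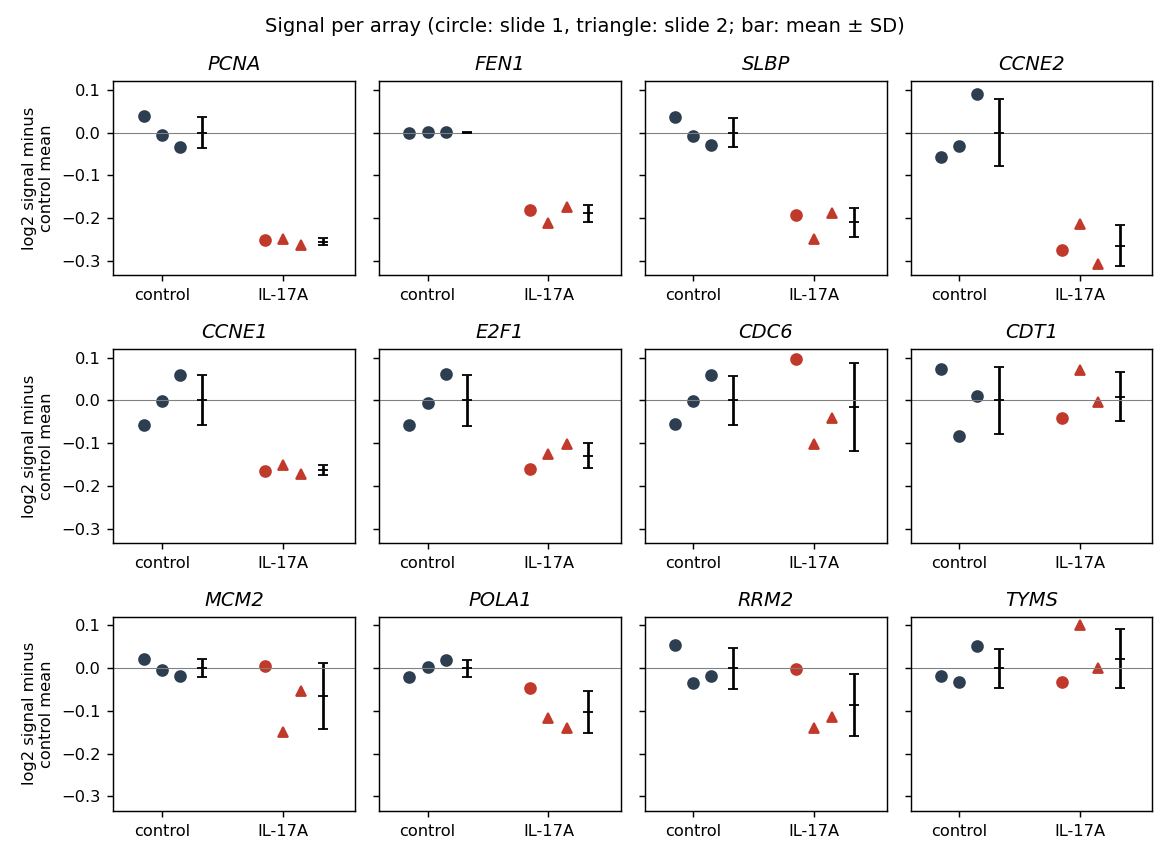
Log2 signal minus the control mean (y axis) of 12 genes on the 3 control arrays and the 3 IL-17A arrays, with circles for slide 1, triangles for slide 2 and bars for the mean ± SD. PCNA, FEN1, SLBP, CCNE2, CCNE1, E2F1 and POLA1 do not overlap between the groups, whereas CDC6, CDT1, MCM2, RRM2 and TYMS do.

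The calls for PCNA, FEN1, SLBP and CCNE2 depended on all 6 arrays being in the fit. Leaving out any 1 of the IL-17A arrays, or control replicate 1 or 2, left 0 of the 49 genes with an adjusted p under 0.05, and leaving out control replicate 3 left 1, PCNA. Over all genes tested, 0 to 22 genes were then called lower in the former fits and 220 in the latter, where the fit of all 6 arrays called 513. The arrays also differed in their slide, as inferred from a shared scan, since slide 1 held the 3 controls and IL-17A replicate 1, and slide 2 held IL-17A replicates 2 and 3. Within slide 1, the log2 fold changes were -0.25 for PCNA, -0.18 for FEN1, -0.19 for SLBP and -0.27 for CCNE2. Slide 1 held only 1 IL-17A array, so the spread with IL-17A cannot be estimated within it. These values are therefore effect sizes only and do not replicate the calls.

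**Figure D4:**
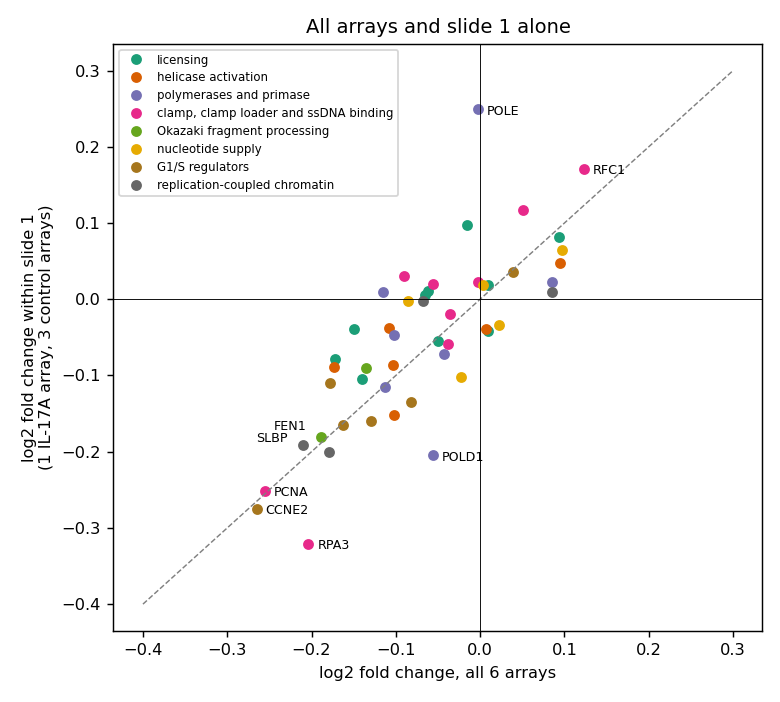
Log2 fold change over all 6 arrays (x axis) and within slide 1, where IL-17A replicate 1 stands against the 3 controls (y axis), for the 49 genes coloured by role, with a dashed line where both are equal. PCNA, FEN1, SLBP and CCNE2 lie on or near the line. Among the genes away from it, POLE, POLA2 and RFC3 lie above it and POLD1 and RPA3 below it. The axes share IL-17A replicate 1 and all controls.

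Among the G1/S regulators, 5 of 6 genes had a lower mean with IL-17A, and this group had the second lowest median of the 8 roles, -0.15. Besides CCNE2, which fell, 3 of them passed only without adjustment. At an unadjusted p under 0.05 by limma, 66.7% of this group were thus lower, against 14.8% of all genes tested. CCNE1, the other E-type cyclin, had log2 signals of 11.03, 11.04 and 11.02 with IL-17A and 11.14, 11.19 and 11.25 in the controls. The IL-17A arrays differed little from each other and lay below all controls. CCNE1 passed only without adjustment, and the log2 fold change was -0.16 ± 0.043 (SE; limma, adjusted p = 0.0728). E2F1, the factor that drives S-phase genes including its own, had 8.50, 8.53 and 8.56 with IL-17A and 8.60, 8.66 and 8.72 without it. Again the groups did not overlap, and the log2 fold change was -0.13 ± 0.045 (SE; limma, adjusted p = 0.123). CDC25A, the phosphatase that frees CDK2 for activity, was at -0.18 (limma, adjusted p = 0.0977). The related activators E2F2 and E2F3 were at -0.08 and 0.04, with overlapping groups.

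The 10 licensing factors had 7 lower and 3 higher means, a median log2 fold change of -0.056 and no gene past the adjusted threshold. CDC6, an ATPase that loads the MCM ring, was dim, at log2 signals of 4.70, 4.51 and 4.57 with IL-17A and 4.55, 4.61 and 4.67 without. Its values were interleaved between the groups, with a log2 fold change of -0.016 ± 0.065 (SE) and an interval from -0.18 to 0.15. CDT1, its partner in loading, had 11.36, 11.47 and 11.39 with IL-17A against 11.47, 11.31 and 11.41, a log2 fold change of 0.0088 ± 0.057 (SE) with an interval from -0.13 to 0.15. Neither loading factor passed the test by limma (adjusted p = 0.893 and 0.933).

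The 6 subunits of the MCM ring all had a lower mean, from -0.05 for MCM3 to -0.17 for MCM5. MCM2 had log2 signals of 10.43, 10.28 and 10.38 with IL-17A and 10.45, 10.43 and 10.41 in the controls. IL-17A replicate 1 lay among the controls and the other arrays below them, and the log2 fold change was -0.07 ± 0.051 (SE; limma, adjusted p = 0.418). MCM7 was the one subunit to pass without adjustment, at -0.14 (limma, adjusted p = 0.0752), but its dimmer probe gave 0.11. MCM5, with -0.17, and MCM4, with -0.15, had adjusted p-values by limma of 0.211 and 0.186 and overlapping groups. Within slide 1 the ring's subunits other than MCM3 were nearer to 0, at 0.0058 for MCM2, -0.05 for MCM3, -0.04 for MCM4, -0.08 for MCM5, 0.01 for MCM6 and -0.10 for MCM7. The origin recognition subunits were at 0.0097 for ORC1 and 0.09 for ORC6, and ORC6 was higher on every IL-17A array than on any control (limma, adjusted p = 0.161).

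Of the 6 genes that activate the helicase, 4 had a lower mean, with a median of -0.10. MCM10, which joins the helicase as it starts to move, was at -0.17 and passed without adjustment (limma, adjusted p = 0.0881). CDC45 was at -0.10. The 4 subunits of the GINS complex, which work as 1 unit, had means on both sides of the controls. GINS2 and GINS4 were at -0.11 and -0.10, GINS1 at 0.0073 and GINS3 at 0.10, and none of the 4 passed the test without adjustment.

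Of the 7 genes of the polymerases and the primase, 6 had a lower mean and none passed even without adjustment. POLA1, the catalytic subunit of polymerase alpha, which starts each new strand, had log2 signals of 10.33, 10.26 and 10.23 with IL-17A and 10.35, 10.38 and 10.39 in the controls. The groups did not overlap, and the log2 fold change of -0.10 ± 0.041 (SE) was close to the unadjusted threshold (limma, adjusted p = 0.161). POLA2 and POLE2, accessory subunits of polymerases alpha and epsilon, were at -0.12 and -0.11. The catalytic subunits POLD1 and POLE, of the lagging- and leading-strand polymerases, were at -0.06 and -0.0028, and IL-17A replicate 1 was the lowest of the 6 arrays for POLD1 and the highest for POLE. POLE, a dim probe, read 5.63 on the array of IL-17A replicate 1 but 5.22 and 5.29 on those of replicates 2 and 3, and POLD1 read 11.56 on the first and 11.80 and 11.77 on the others. The primase subunits were at -0.04 for PRIM1 and 0.08 for PRIM2, and of the 2 dimmer PRIM2 probes 1 gave -0.07 and 1 gave 0.17, the latter with an unadjusted p of 0.0113 by limma.

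Around the clamp PCNA, which fell, the subunits of its loader had means on both sides of the controls. RFC1, the large subunit of the clamp loader, was higher with IL-17A at 10.43, 10.35 and 10.36, against 10.27, 10.23 and 10.27 in the controls. The groups did not overlap, and with a log2 fold change of 0.12 ± 0.040 (SE) RFC1 was the highest of the 49 genes, but it passed only without adjustment (limma, adjusted p = 0.106). The small subunits were at -0.09 for RFC3, -0.06 for RFC2, -0.0023 for RFC5 and 0.05 for RFC4. RPA, the protein that coats single-stranded DNA, had 3 subunits with a lower mean, at -0.20 for RPA3, -0.04 for RPA2 and -0.04 for RPA1. RPA3 varied among the IL-17A arrays, which read 10.36, 10.63 and 10.45, so that its interval reached from -0.41 to 0.0037 (limma, adjusted p = 0.165). A dimmer RPA2 probe gave 0.15.

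LIG1, the ligase that seals the fragments trimmed by FEN1, was at -0.14, its groups did not overlap, and it passed only without adjustment (limma, adjusted p = 0.112). FEN1 and LIG1 were the only 2 genes of Okazaki fragment processing on the list. Among the genes of replication-coupled chromatin, where SLBP fell, UHRF1, which brings the maintenance methyltransferase to newly copied DNA, was at -0.18 without overlap, and likewise passed only without adjustment (limma, adjusted p = 0.0604). Its dimmer probe gave -0.06. The chromatin assembly subunits CHAF1A and CHAF1B were at -0.07 and 0.09.

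Of the 5 genes of nucleotide supply, 2 had a lower and 3 a higher mean, with a median of 0.0038, and none passed the test even without adjustment. TYMS, which makes thymidylate, was among the brighter probes of the list at 13.75, 13.89 and 13.79 with IL-17A and 13.77, 13.75 and 13.84 without. The groups were interleaved, with a log2 fold change of 0.02 ± 0.052 (SE) and an interval from -0.11 to 0.15. RRM2, the S-phase subunit of ribonucleotide reductase, had 8.61, 8.47 and 8.49 with IL-17A and 8.66, 8.57 and 8.59 without, a log2 fold change of -0.09 ± 0.053 (SE; limma, adjusted p = 0.319). The large subunit RRM1 was at 0.10, higher on every IL-17A array than on any control (limma, adjusted p = 0.189). TK1, which salvages thymidine, was at -0.02. DUT, which removes dUTP, was at 0.0038, while its dimmer probe gave -0.16 (limma, unadjusted p = 0.0242).

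**Figure D5:**
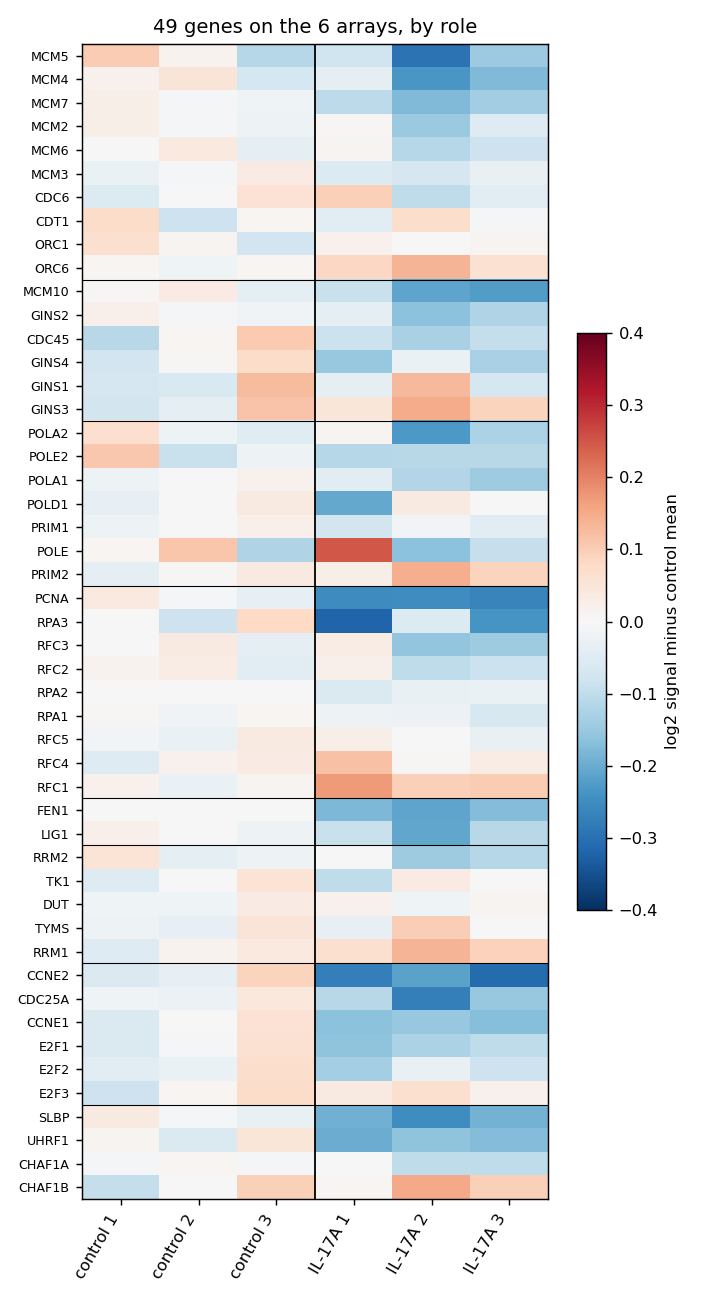
Log2 signal of each of the 49 genes on each array minus the mean of the 3 controls, in colour (scale beside the map), with genes in rows grouped by role and the 6 arrays in columns. The 3 IL-17A columns are mostly below the control mean, for 31, 35 and 36 of the 49 genes.

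Array by array, the downward shift was present on each IL-17A array but not to the same extent. The median over the 49 genes, relative to the control mean, was -0.04 for IL-17A replicate 1, -0.10 for replicate 2 and -0.09 for replicate 3, with 31, 35 and 36 genes below that mean. The control arrays had medians of -0.0016, -0.0022 and 0.018, with 26, 30 and 19 genes below it. All IL-17A arrays were thus below all controls in this median. The median of all genes tested lay between -0.0013 and 0.0092 on every array, but quantile normalization nearly fixes that median. The control medians of the 49 genes are also small by construction, since deviations were taken from the mean of the same controls. IL-17A replicate 1, the array on the slide of the controls, had the smallest shift of the 3, and without it the median log2 fold change of the 49 genes was -0.10. Slide 2 held no control, so with the slide as a fixed block the comparison rests on IL-17A replicate 1 against the controls. The median log2 fold change of the 49 genes was then -0.039. The slide's part in the size of the shift was not tested further.

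The 13 genes with E2F letters in their promoter window had a median log2 fold change of -0.08, with 12 of them lower and a range from -0.18 to 0.0073. The 30 genes with a window but without these letters had a median of -0.04, with 18 of them lower and a range from -0.25 to 0.12. The first range lies within the second. Among the genes that fell, PCNA, FEN1 and SLBP held neither string in their windows, and CCNE2 had no window to search. Only TTTCGCGC and TTTGGCGC were searched, so genes without these letters may hold other forms of the E2F site.

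The further probes of the 49 genes gave a mixed picture. Of the 49 genes, 13 had more than 1 tested probe, which gave 14 probes besides the brightest, and 8 of these 14 had the same sign as the brightest probe. In this set, the probes of CCNE2, DUT, PCNA and PRIM2 passed the test without adjustment, and only that of PCNA passed with it. No gene had probes that differed in direction with each passing the unadjusted test.

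Other genes of the same processes were taken from 3 lists. Among 38 further replication genes, 23 had a lower and 15 a higher mean, with a median of -0.04, and none passed after adjustment by limma. Without adjustment 9 were lower (23.7%, against 14.8% of all genes) and 1 was higher (2.63%, against 16.9%). The genes with the lowest p were SHMT1, a folate enzyme that feeds thymidylate synthesis, at -0.20, POLE3, a small subunit of polymerase epsilon, at -0.18, and DNA2, a nuclease that trims long flaps, at -0.14, with adjusted p-values by limma of 0.053, 0.0551 and 0.0612.

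Of the 16 genes of the Rb and E2F axis, 12 had a higher and 4 a lower mean, with a median of 0.06. The lower ones were 25% of the list, against 49.1% of all genes tested. In this list only TFDP1, the dimer partner through which E2F1 binds DNA, passed the test (6.25% called lower, against 3.48% of all genes). It read 11.36, 11.36 and 11.34 with IL-17A and 11.65, 11.66 and 11.60 in the controls, and it fell by 17.8%, with a log2 fold change of -0.28 ± 0.035 (SE; limma, adjusted p = 0.0314). TFDP2, the other DP partner, and CDKN1B, the CDK2 inhibitor p27, had log2 fold changes of 0.26 and 0.26. Their groups did not overlap, as for 21.4% of all genes with IL-17A higher. Neither gene passed after adjustment (limma, adjusted p = 0.0545 and 0.0596).

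The 16 mitotic genes, which act after replication is complete, were split evenly, with 8 lower, 8 higher and a median of 0.0027. CDC20, the activator of the anaphase-promoting complex, fell, with a log2 fold change of -0.22 (limma, adjusted p = 0.0423). It was the 1 gene of this list that passed (6.25%, against 3.48% of all genes called lower). CCNB2, a mitotic cyclin, and BUB1, a checkpoint kinase, were at 0.16 and 0.08 (limma, adjusted p = 0.0804 and 0.181).

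As a check of the samples, all 12 B cell markers were detected on all 6 arrays, and their summed signal was 77000 to 78200 with IL-17A and 70100 to 74800 in the controls. Of 10 T and NK cell markers 7 were detected on all arrays and CD5, KLRD1 and NCAM1 on none, with sums of 1060 to 1160 against 1230 to 1430. Of the 7 monocyte markers on the array CD14 and ITGAM were detected on all and CSF1R, FCGR3A, S100A8 and S100A9 on none, with sums of 100 to 105 against 106 to 153. The sums of these 3 lists did not overlap between the groups, but each sum is weighted toward its brightest genes. Gene by gene, 9 of the tested B cell markers were higher with IL-17A and 3 were lower (25%, against 49.1% of all genes tested). For the T and NK cell markers 3 were higher and 4 lower (57.1%), and for the monocyte markers 0 and 2. CD4, the brightest T and NK cell marker, had a log2 fold change of -0.31, whereas CD2, a dim one, had 0.51. The part of these 3 lists in the results for the replication genes was not tested. The 8 mesenchymal markers summed to 38.8 to 43.3 against 34.2 to 41.8, and the 12 housekeeping genes to 197000 to 205000 against 202000 to 209000. The number of detected probes was 23570 to 23718 with IL-17A and 23729 to 24077 in the controls, and no probe was called saturated.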

How the data were processed

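Array expression data of SU-DHL-2 cells were used, 3 with IL-17A and 3 controls, grouped by their titles. For each array the authors deposited the output of Agilent Feature Extraction (11.0.1.1, per the submitters' processing notes), with a background-subtracted intensity per spot and flags of 0 or 1 for detection. The authors also deposited a table of quantile-normalized log2 values, which served as an alternative. The number of arrays limits the precision.

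Control spots and spots marked as non-uniform were left out, and 49 probe values were missing as a result. Intensities below 1 were set to 1, the 43118 spots were averaged on the log2 scale into 34127 probes, and arrays were quantile normalized. Probes detected (positive, significant and well above background) on at least 3 of 6 arrays were tested (23945 probes, 70.2%) with limma 3.58.1 in R 4.3.3, two-sided and without covariates, with Benjamini-Hochberg adjustment over all of them. A gene was represented by its brightest tested probe. Sequences and gene positions were from RefSeq (GRCh38.p14). The 43 windows were the outermost of each gene, and MCM4, MCM5, GINS4, RPA2, RPA3 and CCNE2 had none in the table used. In groups of 3, the smallest p of an exact permutation test is 0.1. The fit was tested on simulated data with independent noise and no slide effect, so that test does not bear on the slides.

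The 49 genes and the further lists were chosen with earlier results of these data known. Values per array were given for each of the 49 genes with an adjusted p under 0.05, for MCM2, CDC6, CDT1, PCNA, POLA1, RRM2, TYMS, CCNE1, CCNE2, E2F1 and SLBP whatever their values, and for genes whose probes differed in direction with each an unadjusted p under 0.05. The 3 genes with the lowest p were named from each further list, and the arrays of RFC1, RPA3, POLE, POLD1 and TFDP1 were given after their values were seen. Alternatives were other normalizations and filters, normexp background correction (offset 50), the methods' t-test, a variance trend, a minimum signal, the replicate number and the slide as blocks, other probes, and each array left out in turn.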

Additional observations from a re-analysis of the deposited data

How the results depend on the processing

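No alternative gave a gene of the 49 that rose at an adjusted p under 0.05, or that changed by 1.5-fold with an unadjusted p under 0.05. The count of genes that fell, 4 in the main setting, was 7 with normexp, 9 with a variance trend, 2 with the slide as a random block and 0 with the slide as a fixed block or with no normalization between arrays. It was 3 to 5 with the other scalings, filters, probes and tests, and 0 to 1 when an array was left out. Deviations of arrays with the same replicate number showed no positive correlation, at -0.121 to -0.013. Arrays with different numbers were not compared, so this cannot exclude that the numbers pair the samples. With the replicate block the count was 0, with 1 lower and 2 higher genes over all tested. The median log2 fold change of the 49 genes, -0.065, was -0.0397 with no normalization and -0.039 with the slide as a fixed block, and it ranged from -0.098 to -0.056 when an array was left out.

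Scaling to the 75th percentile moved the median of all genes to -0.023. Single genes were followed under the alternatives for the genes chosen for values per array, called or not, which gave 240 values. Of these, 185 kept their direction and side of the threshold and 13 changed sign. Another 40 kept the direction but lost the call, and 2 gained it (CCNE1, with normexp and with a variance trend). All 40 lost calls were of PCNA, FEN1, SLBP and CCNE2, the only genes with a call to lose. CDC6 was at 0.097 with the slide as a fixed block, 0.028 without IL-17A replicate 2 and 0.013 without control replicate 3, with a lowest value of -0.072 when an array was left out. CDT1 was at -0.0040 with 75th percentile scaling, -0.041 with normexp, -0.041 with the slide as a fixed block, -0.022 without IL-17A replicate 2 and -0.032 without control replicate 2, with a highest value of 0.045 when an array was left out. TYMS was at -0.058 with 75th percentile scaling, -0.016 with no normalization, -0.033 with the slide as a fixed block and -0.017 without IL-17A replicate 2. MCM2 was at 0.0058 with the slide as a fixed block. The fits that leave out an array or add a block have fewer degrees of freedom for the spread, and the other causes of these changes were not tested. CDC6 was the dimmest of the 49 genes, at a mean log2 signal of 4.61 in the controls, and is the nearest to the background.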
